A study of Mus musculus with 31 samples.

Results

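Initiation factors other than eIF2 and its exchange factor eIF2B were followed through ribosome-protected fragments (RPF), total RNA and the ratio of the 2 (translational efficiency, TE). The members were all protein-coding mouse genes whose symbol begins with Eif1, Eif3, Eif4, Eif5 or Eif6, apart from Eif4b. The rule gave 40 genes, of 20704 in the RPF table and 24593 in the total RNA table: 5 in the eIF1 group, 14 in eIF3, 16 in eIF4 with its binding proteins, 4 in eIF5 and 1 in eIF6. A filter on low counts left 35 members in the RPF and TE tests and 36 in the total RNA test. Eif3j2 had no row in the RPF table and 68 total RNA counts over all libraries, Eif4a3l1 had 6 RPF counts, Eif4ebp3 had 1, and Eif4e3 had 111 and was tested in total RNA only. Eif4e1b had no count in either table, which allows a level of up to 0.0755 CPM (counts per 1000000) in RPF and 0.00896 CPM in total RNA over all libraries, a limit that covers counting error only.

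The cells were mouse skin squamous cell carcinoma cells labelled HRasG12V:TgfbrIIfl/fl. The study's resource list instead gives both lines as HRasG12V TgfbrII D/D. The endogenous gene for eIF2α, Eif2s1, had been ablated with CRISPR and replaced by a myc-tagged transgene under the PGK promoter. In S51 cells the transgene was wild-type, and in S51A cells the serine that stress kinases phosphorylate was an alanine, so that the integrated stress response (ISR) could not run through eIF2α. Both lines carried the same ablation and differed by design in the transgene. They grew from single-cell clones that are not named library by library, so the transgene cannot be told apart from other differences between clones. Among the 9 genes of eIF2 and eIF2B, the highest log2 difference with vehicle, S51A minus S51, was 13.2 in total RNA and 9.94 in RPF. Neither value is that of Eif2s1, whose levels in both lines, given below, lay far closer together. Each line received vehicle (DMSO) or 100 nM bortezomib, a proteasome inhibitor, for 4.5 h by the labels. There were 3 RPF libraries of S51 vehicle and 4 of each other group, and 4 total RNA libraries of each of the 4 groups. Nothing in the labels ties a library to a separate culture, so p-values measure the spread between these samples, which may be technical.

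eIF1 and eIF1A sit on the small ribosomal subunit and hold it open while it scans for a start codon. eIF3 is the large scaffold on which the other factors assemble, eIF4F (the cap-binding eIF4E, the scaffold eIF4G and the helicase eIF4A) brings the mRNA, and the 4E-BPs hold eIF4E back when mTOR is low. eIF5 helps eIF2 to release its phosphate at the start codon, eIF5B joins the subunits, eIF5A helps ribosomes through poor sequences, and eIF6 keeps free large subunits from joining too early.

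RPF libraries held between 1038826 and 4902237 counts and total RNA libraries between 18758668 and 22994713. S51 vehicle replicate 2 stood apart in RPF: its median absolute log2 difference from the rest of its group was 0.389, against 0.105 to 0.252 in the other 14 RPF libraries. Of 35 members it was the lowest of its group of 3 for 21 and the highest for 11. RPF and TE values that rest on S51 vehicle are therefore also given without that lysate where the call, the direction or the size by over 1.5 times changes. The 8 keratinocyte and carcinoma markers were all present in total RNA, with a summed level of 11760 to 17500 CPM, while 3 leukocyte markers (1 at 0 throughout), 4 fibroblast markers (2 at 0 throughout), 2 endothelial and 2 melanocyte markers each summed to at most 7.32 CPM in any library. Eif2s1 itself was read at 279 to 314 CPM in total RNA of all 4 groups. Its RPF level ran from 81.2 CPM, in replicate 2, to 171 CPM in S51 vehicle. Over the 8 S51A libraries, vehicle and bortezomib together, it ran from 190.3 to 259.8 CPM, so these ranges differ in treatment as well as line. Reads over Eif2s1 do not tell the transgene from what is left of the endogenous locus.

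In S51 cells 6 of 35 initiation factors were higher and 6 lower in RPF under bortezomib, counts near the background of 14.8% of all genes tested that were higher and 16.0% that were lower. The falls were the larger: Eif4ebp2 fell 3.13-fold, Eif3f 2.74-fold, Eif3k 1.66-fold and Eif3h 1.55-fold, and Eif3i and Eif6 fell less. The rises, in Eif1a, Eif3b, Eif3c, Eif4g1, Eif4g2 and Eif5, all stayed under 1.37-fold. In S51A cells none of the 35 was higher and 3 were lower (Eif3f, Eif3h and Eif1ad), against 9.25% and 11.4% of all genes. Without S51 vehicle replicate 2, a library that does not enter the S51A contrast but does enter the shared estimate of spread, 11 members passed in S51A cells, 6 higher and 5 lower. CPM are shares of a library, so that every change is relative to the other genes and a fall in translation as a whole would not show. In bulk cultures fewer cells of a kind and less RNA per cell cannot be told apart.

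In total RNA more members were called higher than lower in both lines, and scaling by library size alone turned this balance. In S51 cells 20 of 36 were higher and 6 lower under bortezomib, against 29.7% and 30.2% of all genes, and in S51A cells 13 were higher and 9 lower, against 27.5% and 28.9%. Scaling by library size alone moved the median of all genes by -0.16 in S51 and -0.13 in S51A cells on the log2 scale and gave 13 higher and 16 lower in S51 cells, and 9 higher and 14 lower in S51A cells. In TE, 2 of 35 members were higher and 9 lower in S51 cells, against 2.70% and 6.74% of all genes, and 0 higher and 4 lower in S51A cells, against 0.106% and 1.14%. Library sizes alone gave 5 higher and 6 lower in S51 cells, with a median over all genes of 0.16. The 11 TE calls of S51 cells became 6 without S51 bortezomib replicate 3 and 7 without S51 bortezomib replicate 4, and the 4 of S51A cells became 2 without S51A vehicle replicate 2. The unadjusted p of edgeR was under 0.05 for 6 members in S51A TE, and DESeq2 called 0 higher and 5 lower.

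**Figure D1:**
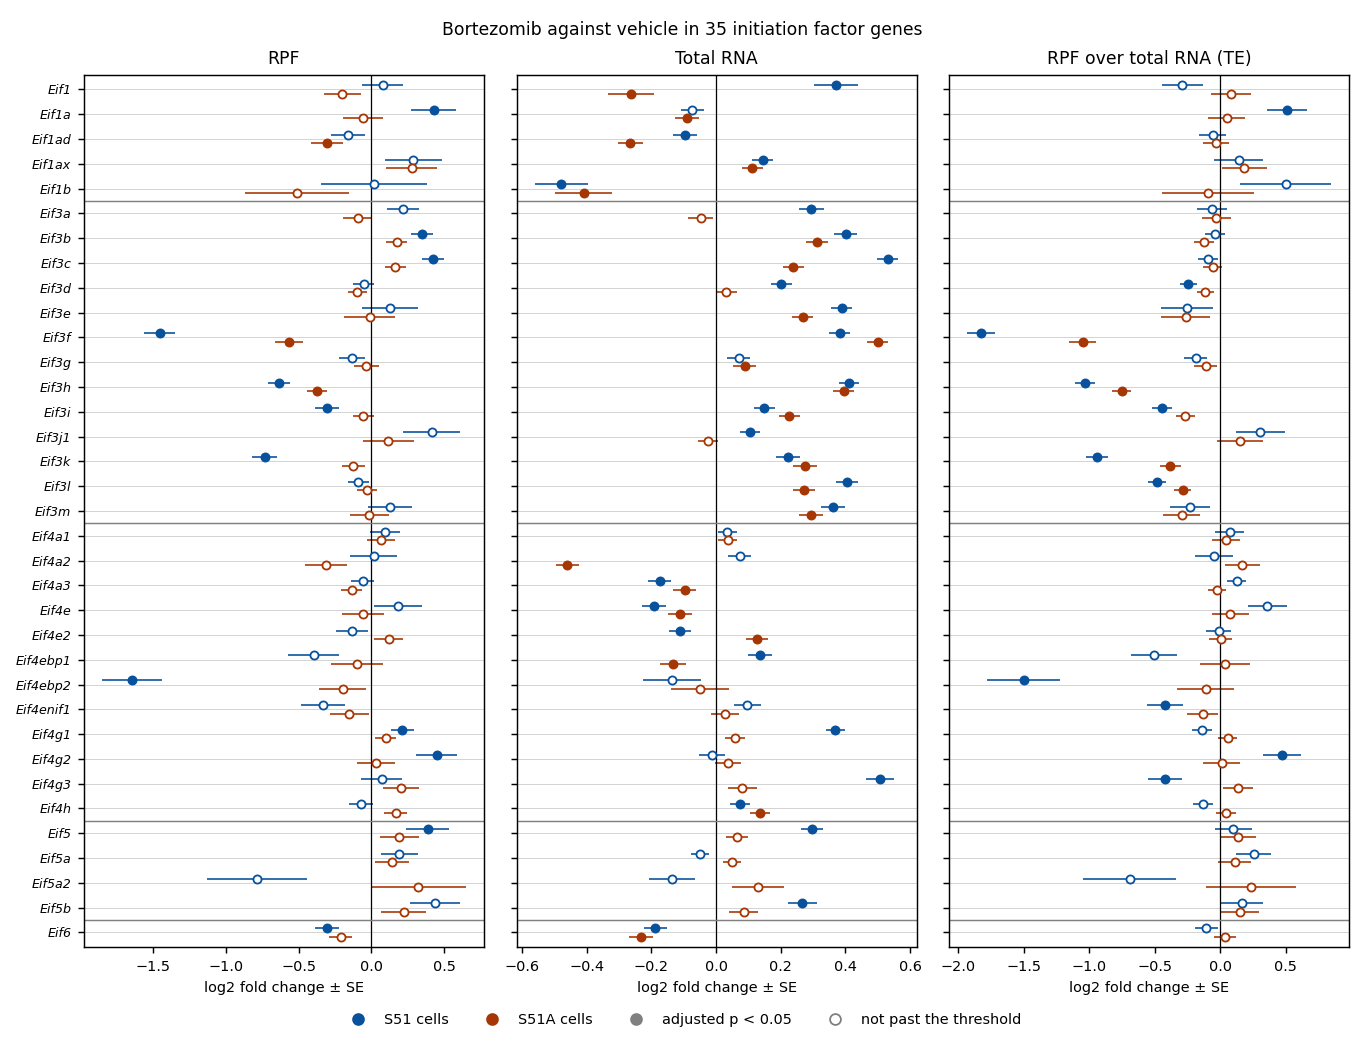
Log2 fold change (± SE) of bortezomib against vehicle in RPF, total RNA and TE for the 35 members tested in all 3, ordered by complex, in S51 (blue) and S51A (brown) cells, with filled points past an adjusted p of 0.05. Eif4ebp2 and Eif3f lie farthest to the left in S51 RPF and TE, at -1.82 for Eif3f TE, while most eIF3 points in total RNA lie to the right of 0, where 3 of 13 in S51 and 4 in S51A cells lie below 0 when libraries are scaled by size alone.

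In the eIF1 group, few values passed. Eif1a, one of the genes for the scanning factor eIF1A, read 181, 98.6 and 175 CPM in RPF of S51 vehicle and 208, 182, 237 and 193 CPM under bortezomib. The low value is replicate 2. The groups all but meet, at 181.4 CPM in S51 vehicle replicate 1 and 181.7 CPM in S51 bortezomib replicate 2. The RPF call of Eif1a was lost in 8 of 15 fits that leave out a library. Its RPF log2 fold change was 0.43 ± 0.16 (SE; adjusted p = 0.0421; adjusted p-values here are those of edgeR's quasi-likelihood test after Benjamini-Hochberg adjustment over all genes tested), and 0.22 without replicate 2, where it did not pass. The same held for its TE, at 0.51 ± 0.15 (adjusted p = 0.0263) and 0.33 without that lysate. Eif1ad, an eIF1A domain protein, was lower in S51A cells under bortezomib, with an RPF log2 fold change of -0.31 (adjusted p = 0.0495), a call lost in 10 of 15 fits that leave out a library. Eif1ax, the X-linked eIF1A gene, rose a little in total RNA of both lines, by 0.14 and 0.11 on the log2 scale, values that turned to -0.01 and -0.0038 with library sizes alone.

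Eif1, the gatekeeper of start codon choice, moved in opposite directions in total RNA. It read 62.4, 64.5, 55.1 and 59.7 CPM in S51 vehicle and 87.8, 73.0, 72.5 and 79.3 CPM in S51 bortezomib, and 59.8, 56.0, 55.0 and 54.3 CPM in S51A vehicle and 54.9, 44.8, 45.5 and 42.4 CPM in S51A bortezomib. The S51 groups do not overlap, and the S51A groups overlap at 1 library. The log2 fold changes were 0.37 ± 0.07 (adjusted p = 4.30e-05) and -0.26 ± 0.07 (adjusted p = 0.00262), and the difference between them was 0.63 ± 0.10 (adjusted p = 6.48e-05). Eif1 RPF changed by 0.08 ± 0.14 (-0.02 without S51 vehicle replicate 2) and -0.20 ± 0.13, neither past the threshold. It had 20185 total RNA counts over 16 libraries and 12765 RPF counts over 15, and reads shared with near-identical copies may be split or lost at the counting step.

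eIF3 carried the most falls. Its RNA and its RPF went apart: of 13 subunit genes tested, 12 were higher in total RNA in S51 cells (median 0.36) and 10 in S51A cells (median 0.27), with none lower, while in RPF 2 were higher and 4 lower in S51 cells and 0 higher and 2 lower in S51A cells. With library sizes alone the total RNA count was 8 higher and 1 lower in S51 cells and 9 higher and 3 lower in S51A cells. In TE, 6 of 13 were lower in S51 cells (Eif3f, Eif3h, Eif3k, Eif3l, Eif3i and Eif3d) and 4 in S51A cells (Eif3f, Eif3h, Eif3k and Eif3l), with 12 of 13 below 0 in each line. With the lysate as a block, Eif3d in S51 cells and Eif3l in S51A cells no longer passed. The medians over the 13 subunits, -0.24 and -0.26, stand beside a median over all genes of 0.01 and 0.0028. Without S51 vehicle replicate 2 the S51 median was -0.45, and 8 subunits were lower in S51 and 6 in S51A cells. Among all genes, 29.7% and 27.5% were higher in total RNA of S51 and S51A cells and 6.74% and 1.14% were lower in TE, while the RPF counts of eIF3 in S51A cells, and the 2 higher in S51 cells, lay near the 11.4% and 14.8% of all genes.

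Eif3f, an MPN-domain subunit, comes first because its TE fell most among the members. Its RPF level was 587, 809 and 581 CPM in S51 vehicle and 246, 240.1, 218 and 256 CPM in S51 bortezomib. In S51A cells it was 561, 574, 543 and 494 CPM with vehicle and 389, 342, 360.4 and 371 CPM with bortezomib. Every treated library lies below every vehicle library of its own line, and the S51 treated libraries lie below the S51A treated ones as well. The RPF log2 fold change was -1.46 ± 0.11 (adjusted p = 7.33e-10) in S51 cells and -0.57 ± 0.10 (adjusted p = 0.000161) in S51A cells. Total RNA rose over the same interval, from 232 to 239 CPM to 298 to 314 CPM in S51 cells and from 195 to 214 CPM to 281 to 296 CPM in S51A cells. The ratio of RPF to total RNA of the same lysate was 2.51, 3.49 and 2.43 in S51 vehicle and 0.785, 0.775, 0.733 and 0.851 in S51 bortezomib. In S51A cells the ratio was 2.88, 2.71, 2.53 and 2.43 and then 1.38, 1.16, 1.23 and 1.25. TE fell by 1.82 ± 0.11 on the log2 scale in S51 cells (adjusted p = 2.36e-15) and by 1.05 ± 0.10 in S51A cells (adjusted p = 1.37e-09).

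Eif3h, the other MPN-domain subunit, and Eif3k, a small subunit that pairs with Eif3l, fell less. Eif3h read 541, 512 and 572 CPM in RPF of S51 vehicle and 356, 350.1, 337 and 355 CPM in S51 bortezomib, and 499, 504, 508 and 468 CPM against 413, 384, 367 and 359 CPM in S51A cells. The groups of each line do not overlap, and the treated libraries of both lines stand close. The RPF log2 fold changes were -0.63 ± 0.08 and -0.38 ± 0.07 (adjusted p = 2.02e-06 and 0.000535), with TE at -1.03 ± 0.07 and -0.75 ± 0.07 (adjusted p = 3.15e-13 and 1.06e-09). Eif3k read 471, 556 and 465 CPM in S51 vehicle and 322, 293, 276 and 305 CPM in S51 bortezomib, but 465, 499, 488 and 449.6 CPM against 426, 452, 416 and 452 CPM in S51A cells. Its S51 groups are well apart and its S51A groups overlap. The RPF log2 fold change was -0.73 ± 0.09 (adjusted p = 1.05e-06) in S51 cells and -0.12 ± 0.08 (adjusted p = 0.287) in S51A cells, and TE changed by -0.94 ± 0.09 and -0.38 ± 0.08 (adjusted p = 1.55e-10 and 0.00370), the S51A call being lost without S51A vehicle replicate 2.

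Eif3l read from 502 to 564 CPM with vehicle and 484 to 528 CPM with bortezomib in RPF of S51 cells, with 585 to 606 CPM over S51A vehicle and 565 to 587 CPM over S51A bortezomib libraries. Its total RNA rose in both lines, by 0.40 and 0.27 on the log2 scale, and its TE was lower, at -0.48 ± 0.07 (adjusted p = 5.21e-06) and -0.29 ± 0.07 (adjusted p = 0.0135, not passed with the lysate block, nor without S51A vehicle replicate 2 or S51A bortezomib replicate 3). Eif3c, part of the core, went with its RNA instead: 845, 731 and 874 CPM in RPF of S51 vehicle became 1044, 1068, 1134 and 1137 CPM. These groups do not overlap, at a log2 fold change of 0.42 ± 0.08 in RPF and 0.53 ± 0.03 in total RNA, and TE changed by -0.09 ± 0.08 (-0.15 without replicate 2). Eif3a, the largest subunit, changed in S51 cells by 0.22 ± 0.11 in RPF (0.06 without S51 vehicle replicate 2), which did not pass, and rose by 0.29 ± 0.04 in total RNA. Eif3e and Eif3j1 were not called in RPF or TE in either line with all libraries, and without S51 vehicle replicate 2 Eif3e TE was -0.56 in S51 cells and passed.

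The start of an mRNA is known to carry the pyrimidine tract that puts ribosomal protein and some factor mRNAs under mTOR control. The starts of Eif3f, Eif3l, Eif3k and Eif4ebp2, called lower in RPF or TE under bortezomib, are shown beside Eif3c and Eif4g1, which were not. Eif1ad, Eif3d, Eif4enif1 and Eif4g3 were also called lower and have start windows that are not shown. Eif3h, Eif3i and Eif6 were called lower too, and no start window was at hand for them. Each line gives 15 bases before and 15 bases from the annotated RefSeq start, in GRCm38.p6 and on the strand of the gene, with capitals on the nearest run of a C and at least 4 further C or T within 5 bases of the start:
Eif3f, chr7:108934400-108934429, plus strand: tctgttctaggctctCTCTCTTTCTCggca
Eif3l, chr15:79075208-79075237, plus strand: gcgcggagttcttCTTCCgctctctcccac
Eif3k, chr7:28981874-28981903, minus strand: aaaacaaccggcgctggtgctgaaagcgcc
Eif4ebp2, chr10:61452655-61452684, minus strand: ggtatcgcagcgggacgaccgggcgagagc
Eif3c, chr7:126566352-126566381, minus strand: ctcacctgctcagagggactcggcagctta
Eif4g1, chr16:20672712-20672741, plus strand: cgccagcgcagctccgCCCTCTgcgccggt

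Only Eif3f among the 41 start windows of the 29 members with one had the run at the first base itself, which 2.51% of 32851 windows over all genes and 15 of 78 ribosomal protein windows also had. Within 5 bases of the start, 8 of 41 member windows had it, against 18.3% of all windows and 33 of 78 of ribosomal proteins. Annotated starts can miss the true start by a few bases, and a window with no match says only that these letters are not in it. For Eif4ebp2, on the minus strand, the window was set at base 61452669. The annotated gene reaches base 61452790, so a start further upstream was not read.

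**Figure D2:**
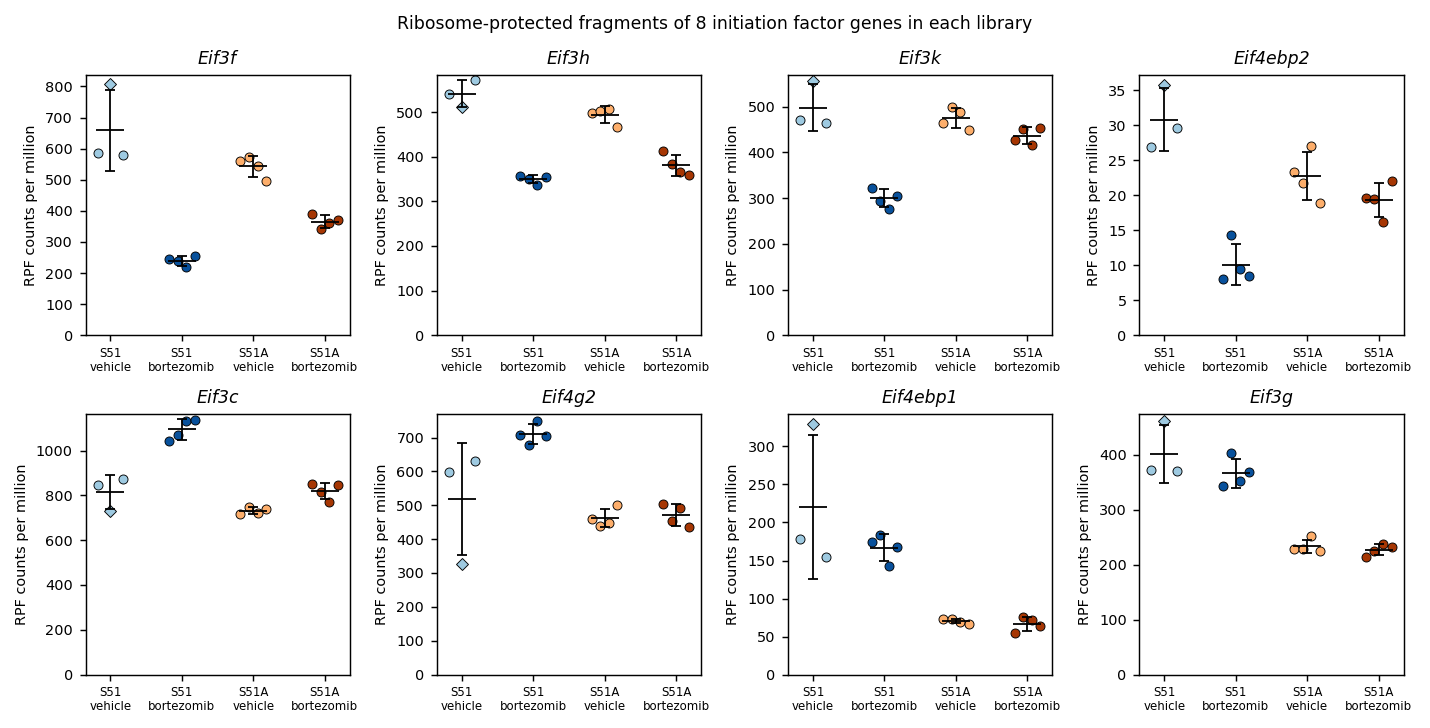
RPF level in CPM of each library (points; bars, mean ± SD) for 8 members in the 4 groups, with S51 vehicle replicate 2 as a diamond. Eif3f, Eif3h, Eif3k and Eif4ebp2 fall in S51 cells, Eif3c and Eif4g2 lie higher there under bortezomib, and Eif4ebp1 and Eif3g are lower in all S51A libraries than in any S51 library.

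Set per length of counted coding sequence (coding sequence without its first 15 and last 5 codons), the RPF density of the 13 eIF3 genes ran from 130 CPM per kb for Eif3a to 833 CPM per kb for Eif3k in S51 vehicle, a 6.39-fold range. In S51 bortezomib it ran from 152 CPM per kb for Eif3a to 501 CPM per kb for Eif3k, a 3.31-fold range. Eif3f stood at 642 CPM per kb, the second highest of 13, in S51 vehicle and at 234 CPM per kb, the 12th, in S51 bortezomib. In S51A cells it was the second highest with vehicle and the fifth with bortezomib, and the ranges were 7.44-fold and 7.29-fold. Eif3h went from rank 3 to rank 6 in S51 cells and from 3 to 4 in S51A cells. The S51 vehicle means rest in part on replicate 2, which stood apart. It read 98.6 CPM per kb for Eif3a, 931 for Eif3k and 788 for Eif3f. The other libraries of the group read 152 and 140.5, 789 and 778, and 572 and 566, in the same order. Without replicate 2 the S51 vehicle range would be narrower. Lengths are those of the longest curated RefSeq transcript, so densities are approximate.

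**Figure D3:**
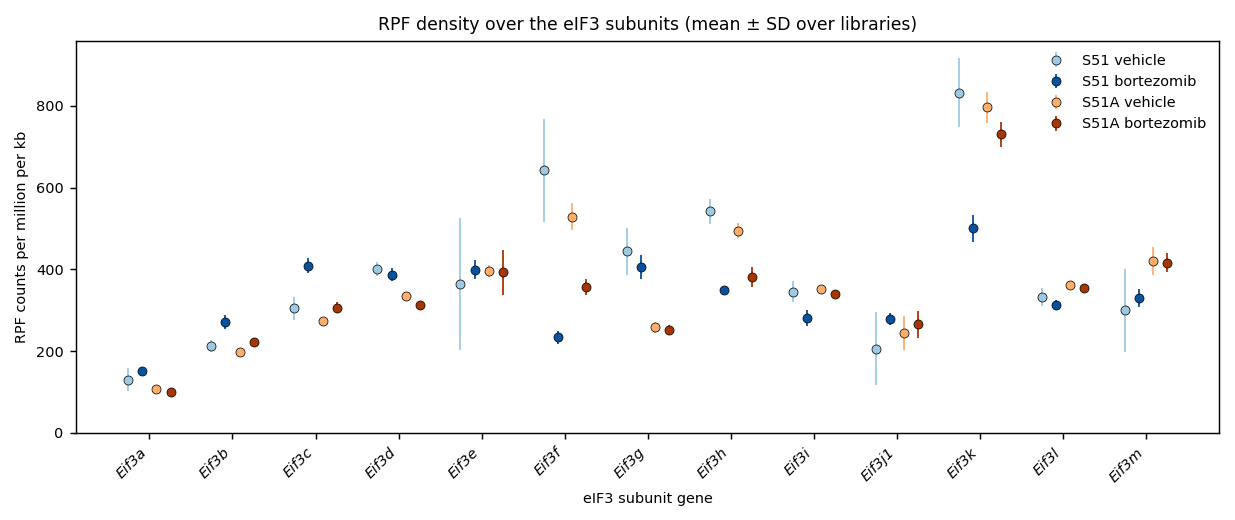
RPF density of 13 eIF3 subunit genes, in CPM per kb of counted coding sequence (mean ± SD over 3 S51 vehicle and 4 other libraries). Eif3f drops from 642 to 234 CPM per kb in S51 cells, and Eif3k stays the highest in all 4 groups. The S51 vehicle mean of Eif3f includes 788 CPM per kb in replicate 2, against 572 and 566 in the other libraries.

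The eIF4 group held the other large fall. Eif4ebp2, a 4E-BP that competes with eIF4G for eIF4E, was covered thinly, with 835 RPF counts over 15 libraries. Its RPF level was 26.9, 35.8 and 29.6 CPM in S51 vehicle and 8.01, 14.3, 9.46 and 8.40 CPM in S51 bortezomib. In S51A cells it was 23.4, 21.8, 27.0 and 18.9 CPM with vehicle and 19.6, 19.5, 16.1 and 22.1 CPM with bortezomib. The S51 groups do not overlap and the S51A groups do. The RPF log2 fold change was -1.65 ± 0.20 (adjusted p = 2.68e-06) in S51 cells and -0.20 ± 0.16 (adjusted p = 0.439) in S51A cells, with total RNA at -0.14 ± 0.09 and -0.05 ± 0.09, neither past the threshold. TE changed by -1.50 ± 0.28 (adjusted p = 0.000251) and -0.11 ± 0.22.

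Eif4g2, which encodes the eIF4G relative DAP5 that lacks the eIF4E-binding region, read 597, 328 and 630.0 CPM in RPF of S51 vehicle and 709, 677, 749 and 706 CPM in S51 bortezomib. The treated libraries are all above the vehicle libraries, and the low vehicle value is replicate 2. RPF rose by 0.45 ± 0.14 (adjusted p = 0.0193), or 0.21 without replicate 2, which also passed, and fell short of the threshold without S51 bortezomib replicate 3. TE rose by 0.47 ± 0.15 (adjusted p = 0.0340) and did not pass without replicate 2, at 0.25. Eif4g1, the main scaffold of eIF4F, rose by 0.21 ± 0.08 in RPF (adjusted p = 0.0473) and by 0.37 ± 0.03 in total RNA in S51 cells. The RPF call was lost in 12 of the 15 fits that leave out a library. Eif4a1, the main helicase, changed by 0.09 ± 0.10 and 0.07 ± 0.10 in RPF of S51 and S51A cells, and Eif4e, the cap-binding protein, by 0.18 ± 0.16 and -0.06 ± 0.15, none past the threshold. Without S51 vehicle replicate 2 both S51 values turned negative, to -0.08 for Eif4a1 and -0.06 for Eif4e. In total RNA Eif4e fell in both lines, by 0.19 and 0.11 on the log2 scale.

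Eif4a2, a second eIF4A helicase, parted by line in total RNA. It read 286 to 301 CPM in S51 vehicle and 298 to 319 CPM in S51 bortezomib, but 250.5 to 280.2 CPM in S51A vehicle and 193 to 201 CPM in S51A bortezomib. The S51A treated libraries are all below the rest. The log2 fold changes were 0.07 ± 0.04 and -0.46 ± 0.04 (adjusted p = 0.0806 and 9.50e-11), with a difference of 0.53 ± 0.05 (adjusted p = 1.40e-07). Its RPF did not follow past the threshold, at 0.02 ± 0.16 and -0.31 ± 0.14. Without S51 vehicle replicate 2 the S51 value was -0.16 and the S51A fall was called. The remaining TE calls of the group in S51 cells, Eif4enif1 (the 4E-T transporter) and Eif4g3, named after their values were seen, were lower and passed neither without S51 vehicle replicate 2 nor with the lysate block.

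In the eIF5 group, Eif5 read 233, 123 and 214 CPM in RPF of S51 vehicle and 226, 246, 274 and 254 CPM in S51 bortezomib, groups that overlap. RPF rose by 0.39 ± 0.15 (adjusted p = 0.0498), a call lost in 12 of 15 fits that leave out a library, among them the one without S51 vehicle replicate 2 (0.17). Total RNA of Eif5 rose by 0.30 ± 0.03 in S51 cells, while its change of 0.06 ± 0.03 in S51A cells did not pass. Eif5b rose by 0.27 ± 0.04 in total RNA of S51 cells, and Eif5a changed by -0.05 ± 0.03 there. RPF of Eif5a and Eif5b was not called in either line with all libraries, and without S51 vehicle replicate 2 Eif5b passed in S51A cells, at 0.22. Eif6, the single member of its group, read 1100.0, 1358 and 1064 CPM in RPF of S51 vehicle and 967, 968, 914 and 944 CPM in S51 bortezomib, with no overlap, a change of -0.31 ± 0.08 (adjusted p = 0.00756), or -0.19 without replicate 2, which also passed. Its total RNA fell by 0.19 ± 0.04 in S51 and 0.23 ± 0.04 in S51A cells, and its TE changed by -0.10 ± 0.09 (0.0093 without replicate 2) and 0.04 ± 0.08.

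Whether the 2 lines responded differently was tested as the difference of their responses, S51 minus S51A. In RPF, 0 of 35 members were higher and 3 lower, against 1.04% and 1.31% of all genes. The 3 were Eif4ebp2 at -1.45 ± 0.27 (adjusted p = 0.00344), Eif3f at -0.89 ± 0.14 (adjusted p = 0.000872) and Eif3k at -0.61 ± 0.12 (adjusted p = 0.00440), and without S51 vehicle replicate 2 they were -1.36, -0.72 and -0.53 and all passed. In TE the same 3 genes were lower and none was higher, against 0.223% and 1.52% of all genes: Eif4ebp2 at -1.39 ± 0.36 (adjusted p = 0.0331), Eif3f at -0.77 ± 0.15 (adjusted p = 0.00229) and Eif3k at -0.56 ± 0.12 (adjusted p = 0.00603). Without S51 vehicle replicate 2 Eif4ebp2 TE was -1.30 and did not pass, and it was lost in 7 of 16 fits that leave out a lysate. Without S51 vehicle replicate 3 the TE count was 5. In Eif3h, which fell in both lines, the difference did not pass in RPF, at -0.26 ± 0.10 (adjusted p = 0.221), nor in TE, at -0.28 ± 0.10 (adjusted p = 0.205), but without S51 vehicle replicate 2 the TE difference was -0.34 and passed. In total RNA 13 of 36 members had the higher response in S51 cells and 1 the lower, against 12.0% and 9.58% of all genes, or 9 and 4 with library sizes alone. Among them were Eif1 and Eif4a2, given above, Eif3a at 0.34, Eif4g1 at 0.31 and Eif3c at 0.29.

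With vehicle, some members differed between the lines in RPF and total RNA. In RPF of vehicle cells 2 of 35 members were higher and 10 lower in S51A than in S51 cells, against 14.8% and 13.8% of all genes. The count of 12 became 6 without S51A vehicle replicate 1, 6 without replicate 2 and 3 without replicate 4. In total RNA 2 of 36 were higher and 19 lower, against 31.4% and 32.4% of all genes. In TE none of 35 was called in either direction, against 0.0743% and 0.0424% of all genes. The unadjusted p of edgeR was under 0.05 for 4, DESeq2 called 0, and without S51 vehicle replicate 3 the count was 7.

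Eif4ebp1, the best known 4E-BP, had the largest RPF difference between the vehicle-treated lines among the members. Its RPF level was 179, 329 and 155 CPM in S51 vehicle and 66.9 to 73.1 CPM in S51A vehicle, and its total RNA 149 to 157 CPM against 69.5 to 73.5 CPM. The lines do not overlap in either measure. The log2 difference, S51A minus S51, was -1.63 ± 0.18 in RPF (adjusted p = 6.38e-07; -1.24 without S51 vehicle replicate 2) and -1.11 ± 0.04 in total RNA (adjusted p = 1.56e-17). Its RPF was not called under bortezomib in either line, but without S51 vehicle replicate 3 it was -0.63 in S51 cells and passed. Eif3g, an RNA-binding subunit of eIF3, was lower by 0.78 ± 0.09 in RPF (adjusted p = 1.38e-06) and 0.71 ± 0.04 in total RNA (adjusted p = 2.11e-14), from 370.2 to 462 CPM to 225 to 252 CPM in RPF. Eif5a2, the second eIF5A gene, read 46.0 to 52.3 CPM in total RNA of S51 vehicle and 18.4 to 25.8 CPM in S51A vehicle (log2 difference -1.19 ± 0.08, adjusted p = 1.39e-12). Its RPF differed by -1.01 ± 0.31 (adjusted p = 0.0167) on 205 counts over 15 libraries, a call lost without S51 vehicle replicate 3, S51A vehicle replicate 2 or S51A vehicle replicate 4.

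**Figure D4:**
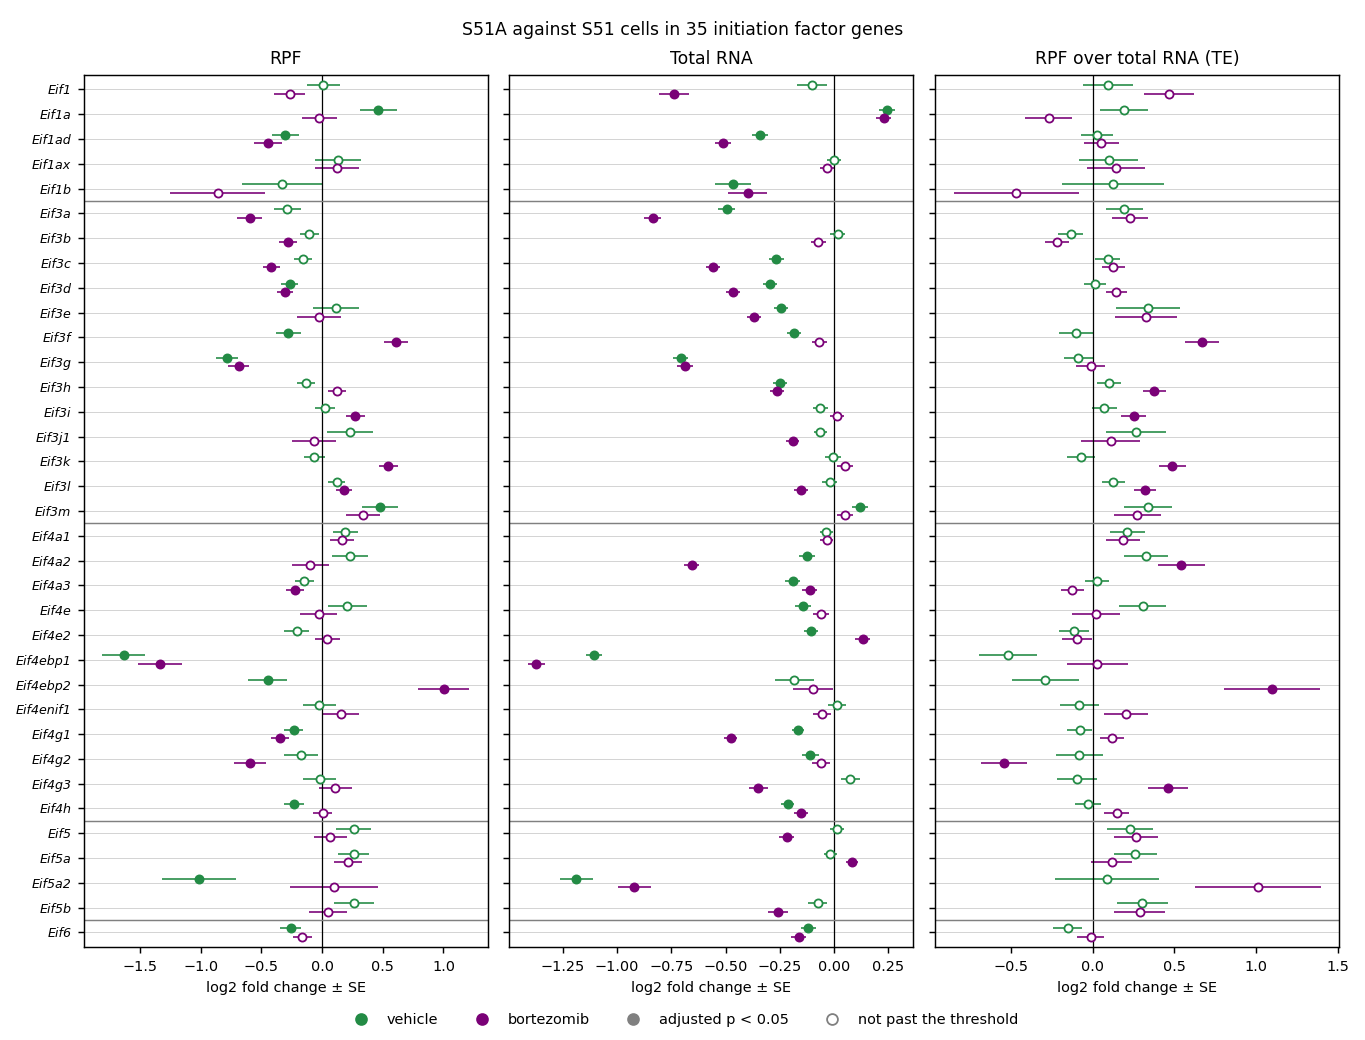
Log2 fold change (± SE) of S51A against S51 cells with vehicle (green) and with bortezomib (purple) in RPF, total RNA and TE for 35 members, with filled points past an adjusted p of 0.05. Eif4ebp1 lies at -1.63 in RPF of vehicle cells, and Eif4ebp2 lies at -0.45 with vehicle and at 1.00 with bortezomib. The vehicle call of Eif4ebp2 was lost in 6 of 15 fits that leave out a library, among them the one without S51 vehicle replicate 2 (-0.35).

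Under bortezomib 10 of 35 members were higher and 5 lower in RPF of S51 than of S51A cells, against 14.9% and 16.6% of all genes. In total RNA 21 of 36 were higher and 3 lower, against 32.4% and 33.3%, and in TE 1 was higher and 8 lower, against 1.54% and 4.87%. Library sizes alone gave 2 higher and 6 lower in TE, and without the lysate of S51 vehicle replicate 2 the TE count was 16. Eif4g2 was the member with the higher TE, at 0.54 ± 0.14 (adjusted p = 0.0129). Its RPF was 677 to 749 CPM in S51 and 436 to 504 CPM in S51A bortezomib, with no overlap. The 8 lower ones were Eif4ebp2 at -1.10, Eif3f at -0.67, Eif4a2 at -0.54, Eif3k at -0.49, Eif3h at -0.38 and Eif3l at -0.32, along with Eif3i and Eif4g3, which did not pass with the lysate block. In RPF Eif3a and Eif3c were higher in S51 cells, by 0.60 and 0.42 on the log2 scale, and Eif4ebp1 by 1.33. This contrast and the responses share their bortezomib libraries.

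Other genes of the initiation pathway were read from a list of 30 co-factors. In S51 cells 5 rose and 5 fell in RPF, near the 14.8% and 16.0% of all genes, and in S51A cells 1 rose and 3 fell, against 9.25% and 11.4%. The largest falls were those of the poly(A)-binding proteins Pabpc1 and Pabpc4, at log2 fold changes of -2.43 and -1.90 in S51 and -1.71 and -1.28 in S51A cells. Mknk2, a kinase of eIF4E, fell by 1.25 on the log2 scale in S51 cells, and its response differed from that of S51A cells by -1.20. In TE 0 of 30 rose and 7 fell in S51 cells, and 0 and 2 in S51A cells, against 6.74% and 1.14% of all genes that fell. Cytosolic ribosomal proteins, set beside the members, fell in RPF for 76 of 79 in S51 cells (median -1.02) and 67 of 79 in S51A cells (median -0.465), and in TE for 75 and 72 of 79 (medians -1.16 and -0.75). The members' medians were 0.02 and -0.04 in RPF and -0.10 and 0.0048 in TE. Of the 9 genes of eIF2 and eIF2B, none was called in TE under bortezomib in either line, with medians of 0.19 and -0.07.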

How the data were processed

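RPF and total RNA libraries were prepared from the same lysates, the total RNA being set aside before nuclease treatment. The deposited values are raw read counts per gene, which the authors made by trimming, alignment to mm10 with Bowtie2 and counting. RPF counts by the authors cover coding sequence without the first 15 and last 5 codons. The processing notes also name featureCounts and DESeq2, without versions. The records of S51 bortezomib and S51A vehicle samples had been exchanged, in RPF and total RNA, and columns were assigned by the submitters' later correction. All 15 RPF and 16 total RNA columns were used.

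Counts were tested with edgeR 4.0.16 in R 4.3.3 (quasi-likelihood test, TMM, 1 coefficient per group, filterByExpr with a minimum count of 10), in 9457 genes for RPF, 11708 for total RNA and 9424 for TE. TE is the interaction of library kind and group. A call is a Benjamini-Hochberg adjusted p below 0.05 over all genes. SE was derived from the quasi-likelihood F value, and CPM are counts per 1000000 of the TMM-scaled library. No pair of replicates agreed within sampling noise (chi-square per gene at least 1.66 in RPF and 2.78 in total RNA). RPF and total RNA of a number share a lysate by the methods, and their deviations from the group means correlated at -0.0654 to 0.366 over 15 pairs (9 over 0.1). Alternatives were DESeq2 1.42.0, other scalings, other count filters, the study's fold minimum, each library left out, a block, and only the groups compared. The 3 tests were also run on simulated data with known fold changes, and the outcome is not given here.

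Members and lists were chosen with earlier results of these data known. Values are given for up to 3 called members per complex and RPF comparison with the largest change, up to 5 per TE comparison and per RPF response difference, and a set of main factors; others named are stated as such or only counted. Starts come from RefSeq windows.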

Additional observations from a re-analysis of the deposited data

Results flagged for a closer look

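The responses of S51 and S51A cells to bortezomib differed by the test of their difference in 3 members in RPF (Eif4ebp2 -1.45, Eif3f -0.89 and Eif3k -0.61 on the log2 scale), in the same 3 in TE (Eif4ebp2 -1.39, Eif3f -0.77 and Eif3k -0.56) and in further members in total RNA. Among the latter, the values were 0.63 for Eif1, 0.53 for Eif4a2, 0.34 for Eif3a, 0.31 for Eif4g1, 0.29 for Eif3c, 0.27 for Eif4ebp1, 0.23 for Eif5, 0.18 for Eif5b, 0.17 for Eif1ad, and 0.13 for Eif3j1 and for Eif3l. Of the 16 fits that leave out a library or lysate, the call was lost in 10 for Eif5b, 8 for Eif3j1, 11 for Eif3l and 2 for Eif1ad in total RNA, and in 7 for Eif4ebp2 in TE.

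Of 160 groups of 4 libraries examined for a single value far from the rest, 5 had one, where chance gives about 1 in 20. In S51A vehicle these were total RNA of Eif3c in replicate 4 (448.5 CPM), RPF of Eif3g in replicate 3 (251.5 CPM), RPF of Eif3l in replicate 2 (606 CPM) and total RNA of Eif4g1 in replicate 4 (678 CPM). In S51A bortezomib it was the TE of Eif4a2 in replicate 1 (0.4115).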

How the results depend on the processing

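Counts of called members, as reported, were 12, 3, 12, 15 and 3 in RPF, 26, 22, 21, 24 and 14 in total RNA and 11, 4, 0, 9 and 3 in TE, for the S51 response, the S51A response, S51A against S51 with vehicle, S51 against S51A with bortezomib, and the response difference. Leaving out each library in turn gave 8 to 14, 2 to 11, 3 to 14, 13 to 20 and 3 to 3 in RPF, 24 to 28, 19 to 22, 20 to 23, 23 to 26 and 10 to 14 in total RNA, and 6 to 15, 2 to 6, 0 to 7, 6 to 16 and 2 to 5 in TE. Adding the fold minimum of the study (1.5 in RPF and TE, 2 in total RNA) left 4, 0, 3 and 6 in the first 4 RPF comparisons, 0, 0, 2, 1 and 0 in total RNA, and in TE 4 in S51 cells, 2 in S51A cells and 2 between the lines under bortezomib. With only the groups compared in the fit, RPF counts were 6 in S51 cells, 10 in S51A cells and 3 with vehicle, and the S51 TE count was 7. DESeq2 gave 5 in the TE response difference. Library sizes alone turned total RNA values of S51 cells to -0.00993 (Eif1ax), -0.0845 (Eif3g), -0.0501 (Eif3j1), -0.119 (Eif4a1), -0.0812 (Eif4a2) and -0.0187 (Eif4ebp1), and of S51A cells to -0.0038 (Eif1ax), -0.0273 (Eif3g), -0.0803 (Eif4a1) and -0.0668 (Eif5a), where the scaling itself moved the median of all genes by -0.16 and -0.13. For the other changes the cause was not tested. The replicate number as a block gave 11, 3, 11, 16 and 3 in RPF and 30, 23, 23, 25 and 17 in total RNA. The labels do not say whether a number pairs libraries across groups. In total RNA 19 of 24 same-numbered pairs correlated over 0.1, against 3 of 72 pairs of unlike number. In RPF these were 3 of 21 and 7 of 63. What libraries of a number share was not tested, and the main total RNA tests do not model it. The lysate as a block gave 8, 3, 0, 8 and 3 in TE. RPF depth limits Eif4ebp2 (835 counts) and Eif5a2 (205 counts), whose errors are the widest among the genes named, and 5 members could not be tested in RPF.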
